A study of Mus musculus with 7 samples.

Results

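The genes described here build, modify, carry or break down heparan sulfate, chondroitin sulfate and hyaluronan, and they were compared between stromal and endothelial cell populations sorted from mouse bone marrow. They were taken by symbol from a list of 49 genes of core proteins, chain synthesis, sulfation and hyaluronan, using every probe set whose only annotated gene symbol is on that list. The rule uses no measured value. It found 46 of the 49 genes, with 99 probe sets, among 18193 genes and 34945 probe sets with a single symbol. Xylt1, Ndst1 and Hyal1 had no probe set of their own and were not analysed here.

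Both populations came from wild type C57Bl/6J mice, described as young adults and aged 6 to 12 weeks. The stromal population was sorted as CD45-Lin-CD54+CD31-BP1+ (4 arrays) and the endothelial population as CD45-Lin-CD54-CD31+ (3 arrays), so both lacked the pan-leukocyte antigen and the lineage markers. No treatment is recorded. Each array held amplified RNA of 1800 to 10000 sorted cells. Whether replicate arrays stem from different animals or sortings is not recorded, and a p-value therefore reflects array-to-array spread alone, which may be technical. The question such a comparison answers is which of these genes the BP1+ stromal cells express at higher or lower levels than the CD31+ cells sorted beside them.

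A proteoglycan is a core protein that carries long sulfated sugar chains. Heparan sulfate chains are polymerised in the Golgi by the exostosins and then sulfated at chosen positions, which creates binding sites for growth factors and chemokines at the cell surface and in the matrix. Chondroitin sulfate chains start from the same linker but are extended and sulfated by other enzymes, and hyaluronan is an unsulfated chain made without a core protein. In bone marrow such chains are known for holding cytokines and chemokines, CXCL12 among them, near the stromal cells that secrete them, while blood cells and platelets store granule contents on serglycin.

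Values are deposited log2 expression values, 1 probe set per gene. A gene counts as called where its adjusted p from limma is under 0.05 over 13995 genes tested and its log2 difference, stromal minus endothelial, is at least 1 in size. The 8 reticular stroma markers (Cxcl12, Lepr, Pdgfra and others) averaged 13.24 to 13.42 on stromal arrays, against 5.46 to 6.48 on endothelial arrays, and all 8 were called higher on stromal arrays. The label of the endothelial population was borne out only in part. Of 12 general endothelial markers 4 were called higher on endothelial arrays. The 12 averaged 5.69 to 5.85 on stromal arrays, against 6.96 to 7.10 on endothelial arrays. Among those called, Esam stood at 6.77 to 7.23 on stromal arrays, against 12.54, 11.74 and 11.97 on endothelial arrays. Which cells supplied the Esam transcript was not tested. Plvap had 8.44 to 9.41 and Kdr 7.85 to 9.63 on endothelial arrays, against 4.83 to 5.71 and 6.49 to 6.86 on stromal arrays. Flt1 was called at -1.02, and Eng lay the other way without a call (0.93). Cdh5, the junction cadherin of endothelium, stood at 4.48, 4.59, 4.74 and 4.74 on stromal arrays, against 5.67, 5.19 and 5.30 on endothelial arrays, each below its array's 40th percentile (5.48 to 5.52 on stromal arrays, 5.68 to 5.79 on endothelial arrays), and Emcn, Tek, Tie1 and Robo4 were also too dim to be tested. The 10 measured megakaryocyte and platelet markers, all called higher on endothelial arrays, averaged 5.82 to 8.40 on stromal arrays, against 13.42 to 13.80 on endothelial arrays. The stromal value of 8.40 belonged to replicate 4, where the platelet chemokine Ppbp stood at 10.19, against 3.75 to 4.30 on the other stromal arrays. Pf4 stood at 9.70, 6.58, 6.61 and 9.73 on stromal replicates 1 to 4. In such bulk RNA, fewer cells of a type and less RNA per cell cannot be told apart. Endothelial replicates 2 and 3 had hybridisation controls at 11.33 and 11.37, against 9.51 to 9.75 on the other 5 arrays.

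Of the 46 genes 43 were bright enough to be tested, and 23 were called higher and 6 lower on stromal than on endothelial arrays. Ndst3, Has2 and Has3 were too dim on nearly all arrays. The called share, 67.4%, stands beside 47% of all 13995 genes. In the stromal direction it was 53.5%, against a background of 30.9%, and in the endothelial direction 14.0%, against a background of 16.1%. The arrays of the 2 populations did not overlap for 36 of the 43 genes, against 68.4% of all genes. Of these, 24 lay above on every stromal array (35.7% of all genes) and 12 above on every endothelial array (32.7%). By adjusted p alone 36 of the 43 passed (24 higher and 12 lower), against 68.5% of all genes. Their median log2 difference was 1.44, against 0.19 over all genes. With the mean of all probe sets per gene it was 0.56, against 0.17 over all genes, and 18 were called higher and 6 lower. The level of a gene moved with this direction across the whole table. Genes with a population mean of 8 or more had a median difference of 0.88, and dimmer tested genes one of -0.48. Among the 28 brighter genes of the set 19 were called higher and 4 lower, and among the 15 dimmer ones 4 were called higher and 2 lower. Among all brighter genes 44.7% were called higher and 16.2% lower, and among all dimmer tested genes 12.7% higher and 16.0% lower. Of all 6571 calls 65.7% were toward the stromal side as deposited, and 52.0% after a second quantile normalization, which moved the median of all genes to -0.12.

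**Figure D1:**
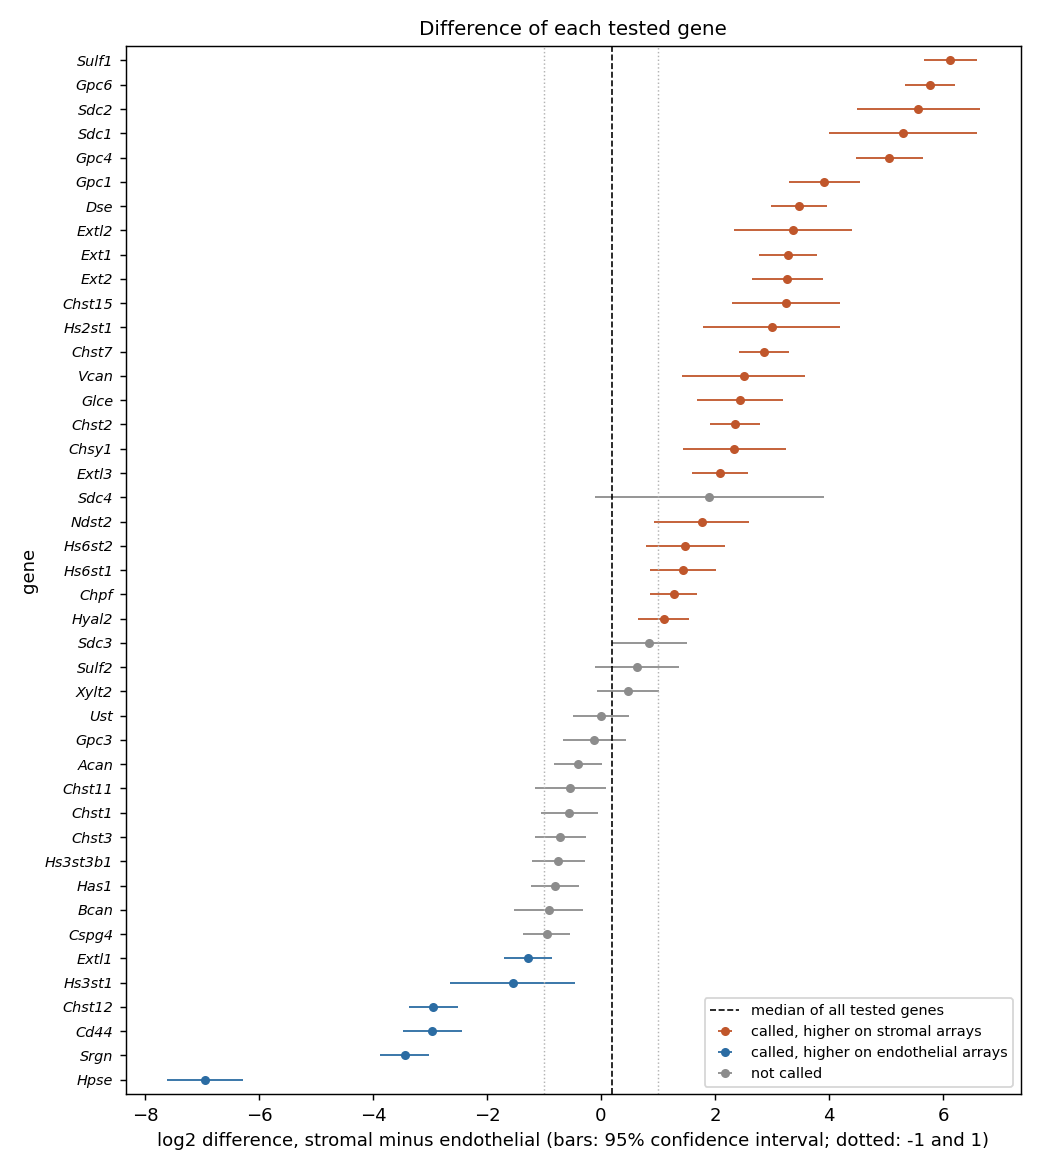
Log2 difference, stromal minus endothelial, of each tested gene with its 95% confidence interval, ordered by size, with the median of all genes as a dashed line. The differences run from 6.13 for Sulf1 to -6.95 for Hpse, with most heparan sulfate enzymes on the stromal side.

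The membrane-bound heparan sulfate core proteins included most of the largest differences. Of 8 syndecans and glypicans 5 were called higher on stromal arrays (62.5%, against 30.9% of all genes) and none lower, with a median difference of 4.49. Syndecans span the membrane, and glypicans are held by a lipid anchor. Sdc1 stood at 12.42, 12.24, 12.09 and 12.45 on stromal arrays, against 6.95, 8.46 and 5.61 on endothelial arrays. The stromal arrays lay close together and the endothelial ones spread widely, and the difference was 5.30 (SE 0.57, adjusted p 1.03e-04). Sdc1 is also a surface marker of plasma cells, whose 6 markers averaged 6.00 to 6.34 on stromal arrays, against 6.51 to 7.28 on endothelial arrays. The highest of these means was on endothelial replicate 2, where Sdc1 was highest too among the endothelial arrays. Mzb1 stood at 9.96 and Irf4 at 7.86 on that array. Jchain, Tnfrsf17 and Prdm1 were too dim to be tested, and Xbp1 was called higher on stromal arrays (difference 1.88). The part of plasma cells in the Sdc1 value of 8.46 was not tested. Sdc2, the syndecan typical of mesenchymal cells, had 11.53, 11.19, 10.77 and 12.12 on stromal arrays, against 5.25, 5.33 and 6.92 on endothelial arrays (difference 5.57, SE 0.47, adjusted p 2.57e-05).

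Gpc4 and Gpc6 were as far apart. Gpc4 had 12.16, 12.45, 11.99 and 12.38 on stromal arrays, against 7.63, 6.67 and 7.25 on endothelial arrays, a difference of 5.06 (SE 0.26, adjusted p 1.49e-06) or 33.3-fold. Gpc6 had 10.53, 10.73, 10.63 and 10.93 on stromal arrays, against 4.73, 4.89 and 5.18 on endothelial arrays, where it lay below the 40th percentile, so the difference of 5.77 (SE 0.19, adjusted p 2.54e-07) is given without a fold. Gpc1 had 10.81, 11.59, 11.07 and 11.02 on stromal arrays, against 6.96, 7.71 and 6.94 on endothelial arrays (difference 3.92, SE 0.27, adjusted p 7.96e-06). For all 3 glypicans every stromal array lay at least 3 log2 units above every endothelial array.

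Sdc3, Sdc4 and Gpc3 were not called. Sdc4, the syndecan of focal adhesions, had 10.03, 10.82, 10.47 and 10.70 on stromal arrays, against 6.07, 9.42 and 10.31 on endothelial arrays. The third endothelial array reached the stromal range, and the difference of 1.90 had a 95% confidence interval of -0.11 to 3.92 (adjusted p 0.0829). Without endothelial replicate 3 it was 2.76 and called (adjusted p 0.0178), and within the arrays of low hybridisation controls, which hold 1 endothelial array, it was 4.44 and called (adjusted p 3.03e-04). A second Sdc4 probe set, with 11.49, 11.73, 12.06 and 11.06 on stromal arrays against 7.47, 6.10 and 7.69 on endothelial arrays, was called with a difference of 4.50 (adjusted p 4.82e-05 over all probe sets), so the probe sets of this gene give different calls. Sdc3 differed by 0.84 (SE 0.29, adjusted p 0.0287), under the size a call needs, and by 1.04 with a call without stromal replicate 1 (adjusted p 0.0131). It differed by 0.26 after either further normalization and by 0.03 as the mean of its probe sets, of which another tested one stood at -0.93. Gpc3, a glypican of embryonic tissues, had overlapping values, 6.00 to 6.68 on stromal arrays and 6.11 to 6.69 on endothelial arrays (interval of the difference -0.67 to 0.44, adjusted p 0.675).

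**Figure D2:**
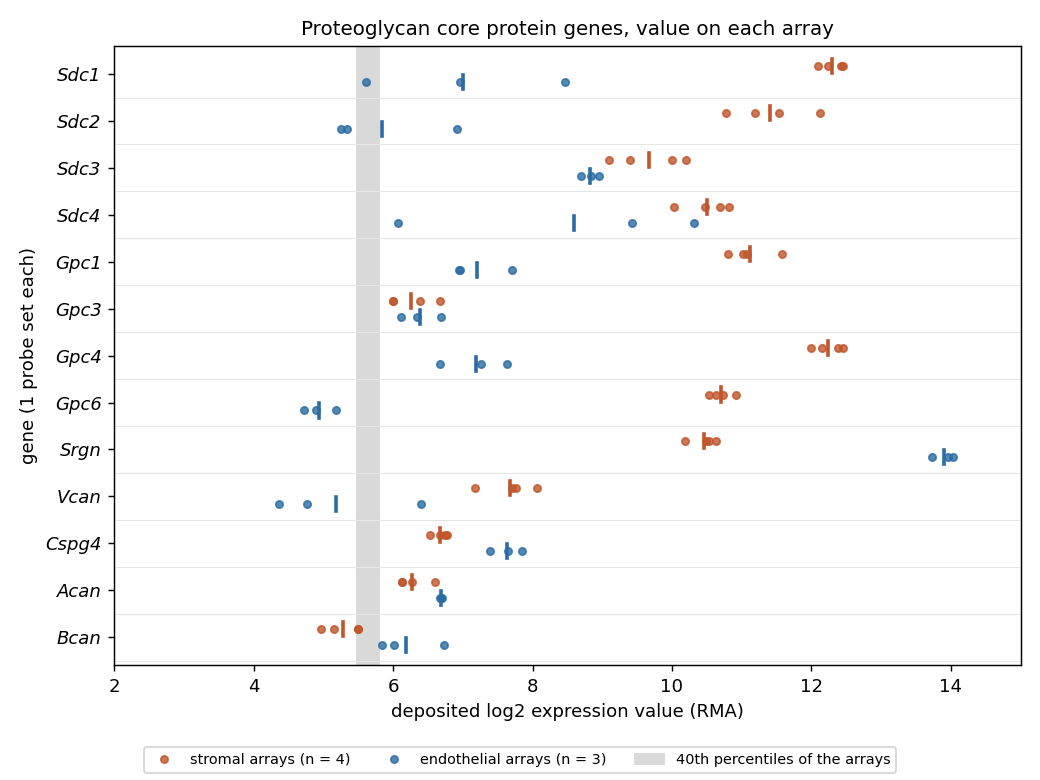
Deposited log2 value of each core protein gene on each array, with vertical marks at the population means and a grey band over the arrays' 40th percentiles. The stromal arrays lie above the endothelial arrays for Sdc1, Sdc2, Gpc1, Gpc4 and Gpc6, and Srgn lies the other way.

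Among the 5 other core proteins 1 was called in each direction (20% each, against 30.9% higher and 16.1% lower of all genes). Srgn encodes serglycin, the intracellular granule proteoglycan of blood cells and platelets. It had 10.63, 10.54, 10.49 and 10.18 on stromal arrays, against 14.03, 13.73 and 13.96 on endothelial arrays, a difference of -3.45 (SE 0.18, adjusted p 2.01e-06) or 10.9-fold lower. Its lowest stromal value, 10.18, was on replicate 4, the stromal array with the most platelet transcript. Without that array, with all endothelial arrays kept, the difference was -3.35. The part of platelet transcript in it was not tested. Mast cells, another source of serglycin, share a list of 8 markers with basophils. These averaged 4.92 to 5.56 on stromal arrays, against 6.30 to 7.53 on endothelial arrays. Mcpt8, Hdc and Cpa3 were called higher on endothelial arrays. Mcpt4, Tpsb2 and Ms4a2 were not called, and Cma1 and Fcer1a were too dim to be tested. Neutrophil markers averaged 7.87 to 9.89 on stromal arrays, against 9.64 to 12.46 on endothelial arrays, and the part of these cells in the Srgn difference was not tested.

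Vcan, the large matrix chondroitin sulfate proteoglycan versican, had 7.18, 7.71, 8.07 and 7.76 on stromal arrays, against 4.36, 6.40 and 4.76 on endothelial arrays (difference 2.50, SE 0.47, adjusted p 0.00215), the endothelial mean being below the 40th percentile. Cspg4, the NG2 proteoglycan of pericytes, had 6.53, 6.74, 6.77 and 6.67 on stromal arrays, against 7.85, 7.39 and 7.65 on endothelial arrays, a difference of -0.95 (adjusted p 0.0022) just under the size for a call. It was called after a second quantile normalization (-1.36), after cyclic loess (-1.17), within the arrays of low hybridisation controls (-1.17) and without endothelial replicate 2 (-1.07). Acan and Bcan, the cartilage and brain members of the versican family, differed by -0.41 (adjusted p 0.0749) and -0.92 (adjusted p 0.0149). Bcan was called without endothelial replicate 2 (-1.09) or 3 (-1.01) and within the arrays of low hybridisation controls (-1.45). All 3 of these negative differences are of genes with both means under 8, whose median over all such genes was -0.48.

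Of 5 exostosin family genes, listed under heparan sulfate chain growth, 4 were called higher and 1 lower on stromal arrays. The shares, 80% and 20%, stand beside 30.9% and 16.1% of all genes. With the mean of each gene's probe sets 2 were called higher and 1 lower. Ext1 and Ext2 form the polymerase. Ext1 had 10.43, 10.34, 10.19 and 10.59 on stromal arrays, against 6.71, 7.15 and 7.46 on endothelial arrays (difference 3.28, SE 0.22, adjusted p 6.92e-06, 9.72-fold). Ext2 had 10.93, 10.91, 10.49 and 11.02 on stromal arrays, against 7.98, 6.99 and 7.73 on endothelial arrays (difference 3.27, SE 0.27, adjusted p 2.27e-05, 9.65-fold). Averaged over all probe sets Ext1 differed by 1.55 and Ext2 by 0.56 without a call, and a dim second Ext2 probe set was called the other way (-1.07). Extl3, which adds the first glucosamine that commits the linker to heparan sulfate, had 10.44, 10.54, 10.28 and 10.48 on stromal arrays, against 8.14, 8.79 and 8.12 on endothelial arrays (difference 2.09, SE 0.21, adjusted p 8.00e-05). Extl2, a transferase that acts on the linker, had 11.18, 11.42, 10.95 and 11.51 on stromal arrays, against 7.49, 9.12 and 7.08 on endothelial arrays (difference 3.37, SE 0.45, adjusted p 3.76e-04). Extl1 was the exception, with 5.50 to 5.76 on stromal arrays, against 6.75 to 7.16 on endothelial arrays (difference -1.28, SE 0.18, adjusted p 5.24e-04). It is one of the dim genes, and after cyclic loess its difference of -0.98 was under the size for a call. Xylt2, whose product adds the first sugar of every such chain, was near the 40th percentile in both populations and was not called (difference 0.47, 95% interval -0.08 to 1.02, adjusted p 0.108).

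Of 7 tested chain-modifying genes of heparan sulfate 5 were called higher and 1 lower on stromal arrays. The shares, 71.4% and 14.3%, stand beside 30.9% and 16.1% of all genes. Modification runs from N-deacetylation and N-sulfation to epimerisation and then O-sulfation. Ndst2, an N-deacetylase and N-sulfotransferase, had 9.21, 8.63, 8.66 and 8.70 on stromal arrays, against 6.73, 6.44 and 7.95 on endothelial arrays (difference 1.76, SE 0.36, adjusted p 0.00333). Glce, the epimerase that turns glucuronic into iduronic acid, had 9.58, 9.66, 9.25 and 10.15 on stromal arrays, against 7.08, 6.69 and 7.89 on endothelial arrays (difference 2.44, SE 0.33, adjusted p 3.69e-04). Hs2st1, the 2-O-sulfotransferase that follows, had 8.59, 9.29, 9.20 and 9.05 on stromal arrays, against 6.19, 7.22 and 4.71 on endothelial arrays (difference 2.99, SE 0.52, adjusted p 0.00152). Of its 4 tested probe sets 2 were called higher, and 2 differed by 0.22 and 0.41 without a call.

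Of 3 measured 6-O-sulfotransferases Hs6st1 and Hs6st2 were called higher on stromal arrays, and Hs6st3 was too dim to test, at 4.99 to 5.45 on stromal arrays, against 5.65 to 6.38 on endothelial arrays. Hs6st1 had 7.65, 7.63, 7.42 and 7.88 on stromal arrays, against 6.63, 5.67 and 6.31 on endothelial arrays (difference 1.44, SE 0.25, adjusted p 0.00157). Hs6st2 had 5.93, 6.53, 5.75 and 6.85 on stromal arrays, against 4.53, 4.73 and 5.09 on endothelial arrays (difference 1.48, SE 0.30, adjusted p 0.00323), and the endothelial values lay below the 40th percentile. Its other probe sets were too dim to be tested and differed by -0.64, -0.49 and -0.22. The calls of Ndst2, Hs6st1 and Hs6st2 were lost with treat, which tests for a difference above 1 (adjusted p 0.129, 0.205 and 0.245). Of the 3-O-sulfotransferases, which make the rarest modification, Hs3st1 alone was called. Hs3st1, known for the antithrombin-binding site, had 5.33, 5.94, 5.69 and 5.47 on stromal arrays, against 6.01, 8.32 and 7.14 on endothelial arrays (difference -1.55, SE 0.48, adjusted p 0.0200). This call rested on endothelial replicate 2, without which the difference was -0.97 and under the size for a call. Without stromal replicate 1 the adjusted p was 0.0549, and within the arrays of low hybridisation controls, which hold 1 endothelial array, the difference was -0.40 (adjusted p 0.469). Hs3st3b1 (difference -0.75, adjusted p 0.0124), Hs3st2 (-0.26, adjusted p 0.166) and Hs3st3a1 (-0.41, adjusted p 0.0893) were dim and not called.

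**Figure D3:**
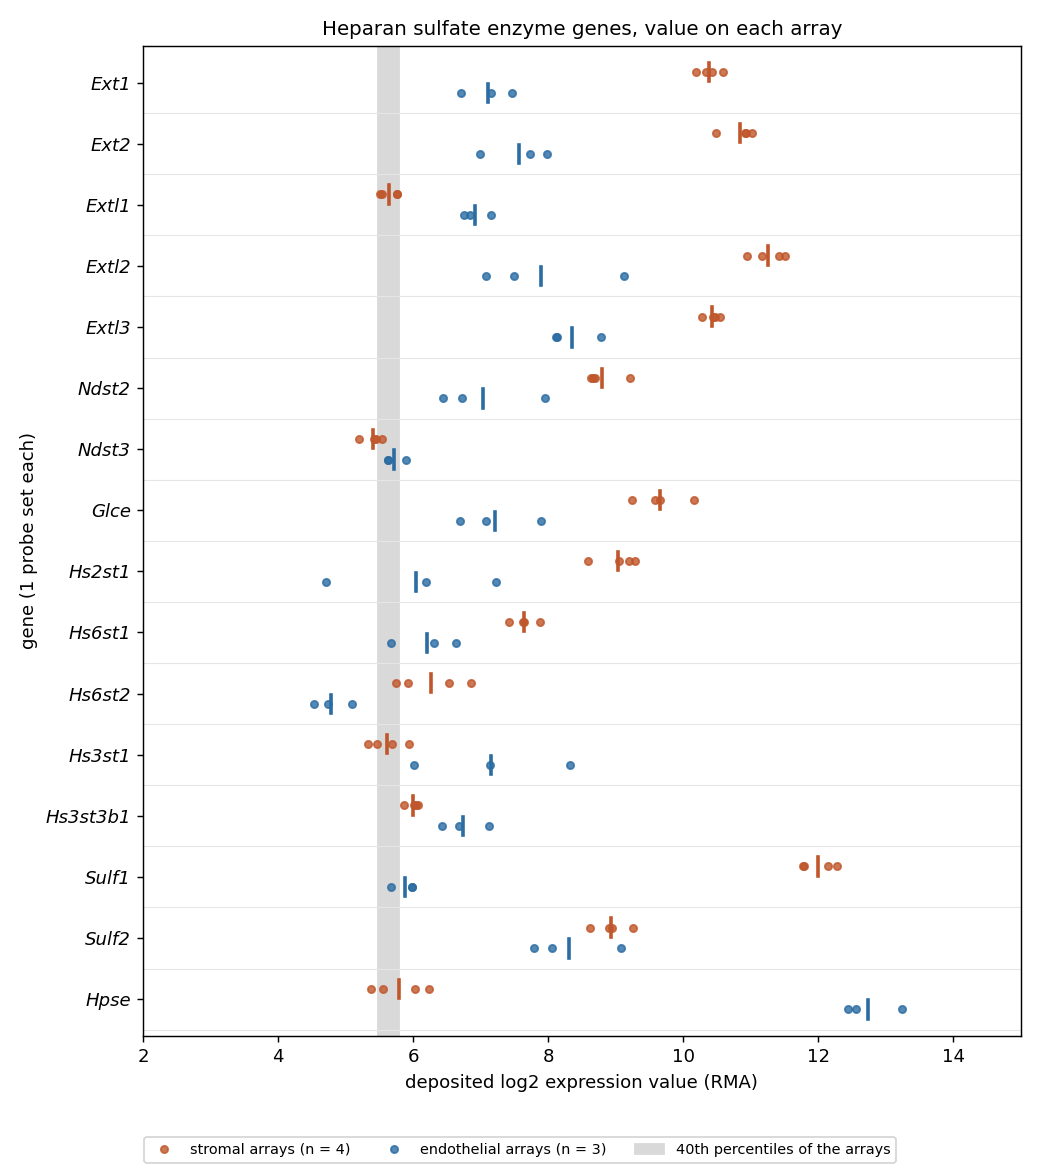
Deposited log2 value of each gene of heparan sulfate chain growth, modification and extracellular editing on each array, with vertical marks at the population means and a grey band over the arrays' 40th percentiles. The stromal arrays lie to the right for Ext1, Ext2, Glce, Hs2st1 and Sulf1, and Hpse shows the widest gap in the other direction.

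The extracellular enzymes that edit finished heparan sulfate gave the largest difference of the set in each direction. Sulf1, a secreted endosulfatase that removes 6-O-sulfate groups, had 11.79, 12.15, 11.78 and 12.28 on stromal arrays, against 5.98, 5.67 and 5.98 on endothelial arrays. The difference was 6.13 (SE 0.20, adjusted p 2.54e-07, 69.9-fold), with rank 133 of 13995 genes from the stromal end. Sulf2, its relative with the same activity, overlapped between the populations, with 8.90, 9.26, 8.94 and 8.62 on stromal arrays and 7.79, 9.07 and 8.06 on endothelial arrays. Its difference was 0.63 (95% interval -0.11 to 1.36, adjusted p 0.113), and 1.01 with a call without endothelial replicate 2 (adjusted p 0.00536). Hpse, the heparanase that cuts heparan sulfate chains and is abundant in platelets, had 5.55, 6.03, 5.37 and 6.23 on stromal arrays, against 13.24, 12.44 and 12.56 on endothelial arrays. Its difference was -6.95 (SE 0.29, adjusted p 5.84e-07, 124-fold lower), with rank 24 from the endothelial end. The highest stromal Hpse value, 6.23, was on replicate 4, the stromal array with platelet markers at 8.40, and the difference was -7.10 without it. On endothelial arrays Hpse stood beside platelet markers at 13.42 to 13.80. The 12 general endothelial markers there averaged 6.96 to 7.10. Esam was the brightest of them, at 12.54, 11.74 and 11.97, and Cdh5 lay below the 40th percentile. Which cells supplied the Hpse and Esam transcripts was not tested.

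Chondroitin and dermatan sulfate enzymes were divided, with 5 of 9 called higher and 1 lower on stromal arrays (median difference 1.27). The shares, 55.6% and 11.1%, stand beside 30.9% and 16.1% of all genes. Both polymerisation genes were among the 5. Chsy1, a chondroitin synthase, had 11.80, 11.81, 11.83 and 12.17 on stromal arrays, against 9.83, 10.34 and 8.53 on endothelial arrays (difference 2.34, SE 0.39, adjusted p 0.00129). Chpf, its polymerising partner, had 8.91, 8.80, 8.75 and 9.08 on stromal arrays, against 7.61, 7.41 and 7.81 on endothelial arrays (difference 1.27, SE 0.18, adjusted p 5.06e-04). The Chpf call was lost after a second quantile normalization (0.62) and after cyclic loess (0.63).

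Sulfotransferases acting on the same chain differed in direction. Chst15, which adds a further sulfate to already 4-sulfated units, had 12.80, 12.48, 12.28 and 12.88 on stromal arrays, against 8.27, 10.07 and 9.75 on endothelial arrays (difference 3.25, SE 0.41, adjusted p 2.87e-04). Chst7, a chondroitin 6-O-sulfotransferase, had 9.67, 9.75, 9.46 and 9.17 on stromal arrays, against 6.68, 6.68 and 6.60 on endothelial arrays (difference 2.86, SE 0.19, adjusted p 7.01e-06). Chst12, a chondroitin 4-O-sulfotransferase, had 8.25, 8.44, 8.31 and 8.16 on stromal arrays, against 11.39, 10.92 and 11.39 on endothelial arrays (difference -2.94, SE 0.19, adjusted p 5.44e-06, 7.67-fold lower). Chst12 lay on the endothelial side, as Srgn did. Without stromal replicate 4, with all endothelial arrays kept, the Chst12 difference was -2.90. The part of platelet transcript in it was not tested. Chst11, the other 4-O-sulfotransferase of the set, was bright in both populations and overlapped, with 9.82, 9.57, 9.35 and 9.57 on stromal arrays and 10.36, 9.49 and 10.49 on endothelial arrays (95% interval of the difference -1.16 to 0.09, adjusted p 0.108). After cyclic loess it was called at -1.03. Chst3, the second 6-O-sulfotransferase, was dim and not called (difference -0.72, adjusted p 0.0116), but was called at -1.01 within the arrays of low hybridisation controls.

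Dermatan sulfate differs from chondroitin sulfate in that epimerases convert part of its glucuronic acid. Dse, one of these epimerases, had 6.59, 7.08, 7.20 and 7.09 on stromal arrays, against 3.45, 3.34 and 3.79 on endothelial arrays (difference 3.47, SE 0.21, adjusted p 4.30e-06). The endothelial values were far below the 40th percentile. Ust, the uronyl 2-O-sulfotransferase, had the same deposited mean in both, 8.04 ± 0.31 on stromal arrays (SD, n = 4) and 8.04 ± 0.12 on endothelial arrays (SD, n = 3), and limma's interval of the difference ran from -0.49 to 0.49 (adjusted p 0.999). After a second quantile normalization Ust differed by -0.65 (adjusted p 0.0489) and after cyclic loess by -0.61, so the equality holds for the values as deposited. Of 2 sulfotransferases that act mainly on other glycans, Chst2 had 8.01, 8.24, 8.20 and 8.48 on stromal arrays, against 6.13, 5.82 and 5.70 on endothelial arrays (difference 2.35, SE 0.19, adjusted p 2.24e-05). Chst1, the keratan sulfate sulfotransferase, was not called (difference -0.56, adjusted p 0.0495), but was called at -1.01 after a second quantile normalization.

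Of 3 tested hyaluronan genes 1 was called in each direction (33.3% each, against 30.9% higher and 16.1% lower of all genes). Cd44, the main cell surface receptor of hyaluronan on leukocytes and other cells, had 10.00, 10.56, 10.65 and 10.44 on stromal arrays, against 13.69, 13.21 and 13.22 on endothelial arrays (difference -2.96, SE 0.23, adjusted p 1.43e-05, 7.78-fold lower). It was thus far above the 40th percentile in both. Without stromal replicate 4, the one with the most platelet transcript, the difference was -2.97. That fit keeps the endothelial arrays, with platelet markers at 13.42 to 13.80. The part of platelet transcript in the Cd44 difference was not tested. Hyal2, a membrane-anchored hyaluronidase, had 9.02, 9.37, 9.30 and 8.86 on stromal arrays, against 8.10, 7.88 and 8.13 on endothelial arrays (2.14-fold higher, adjusted p 0.00154), a call lost after a second quantile normalization (0.43) and after cyclic loess (0.45). The synthases were dim. Has1 averaged 6.39 ± 0.17 on stromal arrays (SD, n = 4) and 7.19 ± 0.21 on endothelial arrays (SD, n = 3) without overlap and was not called (difference -0.80, adjusted p 0.00574), although it was called after a second quantile normalization (-1.08). Has2 had 4.87 to 5.50 on stromal arrays and 4.70 to 5.48 on endothelial arrays, and Has3 had 4.47 to 5.33 on stromal arrays and 5.27 to 5.42 on endothelial arrays, so neither was tested.

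**Figure D4:**
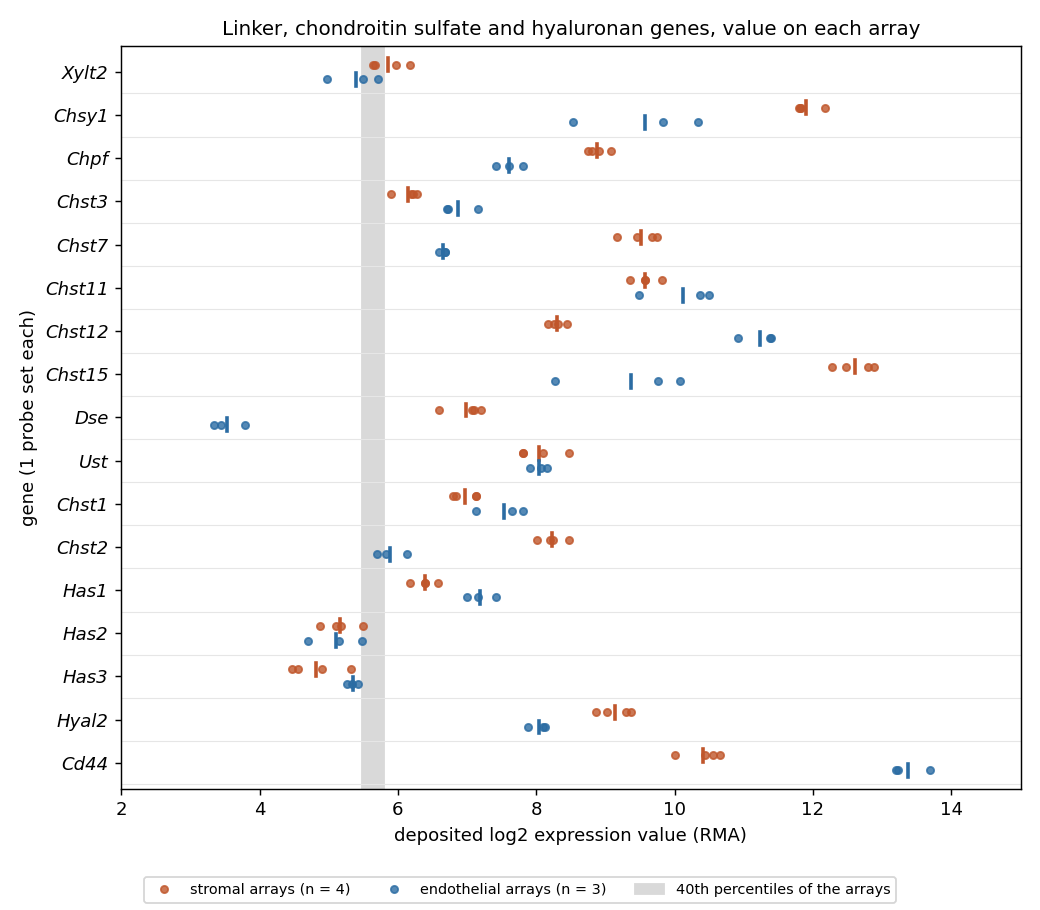
Deposited log2 value of Xylt2 and of each gene of chondroitin sulfate, related sulfation and hyaluronan on each array, with vertical marks at the population means and a grey band over the arrays' 40th percentiles. Chst15, Chst7 and Dse lie to the right on stromal arrays, Chst12 and Cd44 on endothelial arrays, and Ust has the same deposited mean in both.

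The endothelial arrays varied more than the stromal ones. The median SD of the 43 genes was 0.25 over stromal and 0.37 over endothelial arrays, and the endothelial SD was the larger for 32 of them (74.4%, against 76.3% of all genes tested). Over the 23 genes called higher on stromal arrays the highest endothelial value fell on replicate 1 for 6, on replicate 2 for 8 and on replicate 3 for 9. Over all 4319 genes so called it fell on replicate 1 for 1020, on replicate 2 for 2111 and on replicate 3 for 1188.

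Probe sets of one gene often differed in size and at times in sign. Of the 26 genes with several probe sets 12 had differences of both signs, and 7 of the 21 with several tested ones, such as Glce (2.44 and -0.68) and Ext1 (3.28 and -0.18). Of the 99 probe sets 76 were tested, and 37 were called higher and 9 lower on stromal arrays, against 6943 and 3674 of all 24519 probe sets tested. Several probe sets were tested for 21 genes, and Ext2 alone had calls in opposite directions, its second probe set being a dim one with a difference of -1.07 (adjusted p 0.00467 over all probe sets). All 3 tested Cd44 probe sets were called lower, at -2.96, -3.53 and -3.38. For Sdc1 3 of 4 were called higher, at 5.30, 4.43 and 3.10, and the remaining probe set differed by -0.24 without a call. All 3 tested probe sets of Sdc2 were called, at 5.57, 3.98 and 3.29. Averaging all probe sets of a gene, dim ones included, lowered the difference to 3.15 for Sdc1, 3.26 for Sdc2, 3.32 for Gpc6, 3.67 for Sulf1, 1.55 for Ext1 and 1.17 for Hs2st1. It ended the call for Ext2 (0.56), Extl3 (0.99), Glce (0.46) and Chst2 (0.48), and gave Sdc4 one (3.20). Vcan and Hs6st2, called higher by their brightest probe sets, were too dim to be tested once averaged. Probe sets can differ in the transcript ends they read, and which of them reads the main transcript was not tested.

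**Figure D5:**
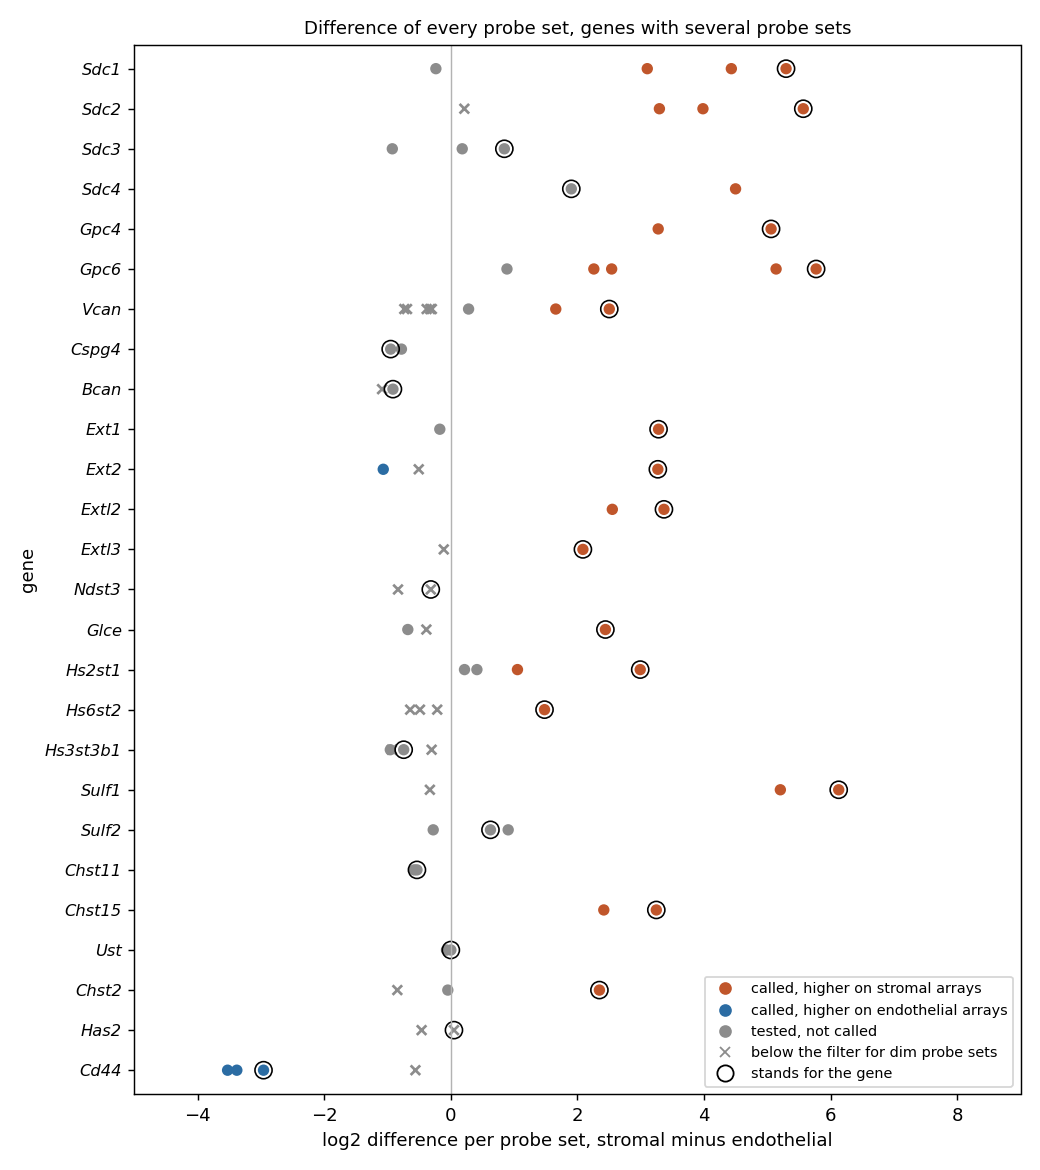
Log2 difference, stromal minus endothelial, of every probe set of the 26 genes with more than 1, with called probe sets in colour, uncalled ones in grey and those below the filter for dim probe sets as crosses. Rings mark the probe set that stands for the gene, and Ext2 is the only gene with coloured points on both sides of 0.

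Other genes of the same pathways, 79 in all, were listed by pathway, and 63 of them were tested. On stromal arrays 27 were called higher and 9 lower (57.1% called, against 47% of all genes, with a median difference of 0.79). The share called higher was 42.9%, against 30.9% of all genes, and the share called lower 14.3%, against 16.1%. The supply of activated sugars and sulfate was one-sided, with 10 of 15 tested genes (66.7%) called higher on stromal arrays and none lower (median 1.79). Among all tested genes with a population mean of 8 or more, 44.7% were called higher. Slc26a2, the sulfate transporter, had 9.60, 9.81, 9.66 and 10.02 on stromal arrays, against 6.42, 6.29 and 7.22 on endothelial arrays (difference 3.13, adjusted p 2.27e-05). Papss1 and Papss2, which make the sulfate donor, differed by 2.62 and 2.27. Gfpt1, the entry enzyme of hexosamine synthesis, differed by 3.70 with endothelial values spread over 6.65, 7.16 and 4.11, and Pgm3 of the same route by 2.27. Lysosomal breakdown genes lay on the same side, with 7 of 12 called higher (58.3%, beside that 44.7%) and none lower. Arsb, which removes sulfate from chondroitin and dermatan sulfate, differed by 2.78, and the heparan sulfate degrading genes Naglu, Hgsnat and Sgsh by 2.66, 2.54 and 2.15. After either further normalization, a second quantile step or cyclic loess, 5 of these 12 were called, since Gusb and Glb1 lost their calls.

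Of the further linker and heparan sulfate genes, 12 were tested. Tgfbr3, the betaglycan co-receptor of TGF-beta, had 14.17, 13.96, 13.97 and 14.11 on stromal arrays, against 7.04, 7.50 and 9.39 on endothelial arrays (difference 6.08, adjusted p 2.22e-05). Agrn and Col18a1, secreted heparan sulfate proteoglycans of basement membranes, differed by 3.04 and 1.21, the Col18a1 call being lost after either further normalization (0.57 and 0.56). Pxylp1, a phosphatase that acts on the linker, differed by 3.51. Hspg2, perlecan of basement membranes, had 8.61 to 8.93 on stromal arrays, against 9.18, 10.09 and 9.71 on endothelial arrays, and was not called (-0.86, adjusted p 0.0124), but was called lower after a second quantile normalization (-1.41) and after cyclic loess (-1.46). On the deposited values Ndst4 was the only one called lower (-1.02, and -0.76 without a call after cyclic loess), at 5.74 to 5.95 on stromal arrays, against 6.61 to 7.19 on endothelial arrays.

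Of 13 further chondroitin and dermatan sulfate genes tested, 4 were called in each direction. That is 30.8% each way, against 30.9% higher and 16.1% lower of all genes. Csgalnact1, which adds the first N-acetylgalactosamine that commits a linker to chondroitin sulfate, had 8.06, 7.73, 7.49 and 8.16 on stromal arrays, against 12.89, 12.81 and 12.48 on endothelial arrays (difference -4.87, SE 0.22, adjusted p 9.16e-07). Csgalnact1 and Chst12 lay on the endothelial side, as did the serglycin core protein, on arrays with platelet markers at 13.42 to 13.80. Which cells supplied these transcripts was not tested. The polymerase genes Chsy1, Chsy3 (4.07), Chpf and Chpf2 (2.29) lay on the stromal side. The dermatan sulfate genes Dsel and Chst14 differed by 3.33 and 2.94, toward the stromal side as Dse did. Cd74 (-1.66), which is carried by B cells and macrophages too, lay on the endothelial side. The 6 measured B lineage markers averaged 6.86 to 7.83 on stromal arrays, against 7.72 to 9.73 on endothelial arrays. Of these 4 were called lower on stromal arrays, and 1, Ebf1, was called higher (difference 3.74). Spock3 (-1.23, and -0.75 without a call after cyclic loess) and Ncan (-1.13) are dim and lay on that side as well.

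Among 11 further hyaluronan genes 2 were called higher and 4 lower on stromal arrays (18.2% and 36.4%, against 30.9% and 16.1% of all genes). Itih5 and Tnfaip6, which belong to a system that links proteins to hyaluronan, differed by 3.85 and 2.21. Itih5 had 10.24 to 10.93 on stromal arrays, against 5.29, 8.40 and 6.52 on endothelial arrays, with the highest of these on replicate 2. Lyve1, the hyaluronan receptor of lymphatic and sinusoidal endothelium, had 4.90 to 4.98 on stromal arrays, against 7.37, 7.17 and 7.59 on endothelial arrays (difference -2.44, adjusted p 8.64e-06). Stab1 (-0.08, adjusted p 0.720) and Stab2 (-0.59, adjusted p 0.0230) of the same list were not called. Hapln3 (-1.37), Cemip (-1.30) and Hapln4 (-1.19) were the others called lower. All 4 genes called lower, Lyve1 included, had both means under 8.

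Promoter sequence is shown for the genes with the largest called differences that have a single entry in the RefSeq promoter table, 2 from each direction. Each is the 250 bases before the start on build GRCm38.p6, written 5′ to 3′ on the gene's strand, from chr12:8771146-8771395 for Sdc1 (plus strand), chrX:52164924-52165173 for Gpc4 (minus), chr5:100719717-100719966 for Hpse (minus) and chr2:102901666-102901915 for Cd44 (minus). Capitals mark the letters of a motif found on either strand. In the first 3 genes this is the GC box GGGCGG, which Gpc4 holds on the opposite strand, and in Cd44 it is the motif of GATA factors, spelled AGATAA.
Sdc1: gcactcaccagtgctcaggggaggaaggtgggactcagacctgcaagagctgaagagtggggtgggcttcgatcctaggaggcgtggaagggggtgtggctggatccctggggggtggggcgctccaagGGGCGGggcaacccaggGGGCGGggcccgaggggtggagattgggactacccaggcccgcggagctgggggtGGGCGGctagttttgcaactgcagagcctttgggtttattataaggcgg
Gpc4: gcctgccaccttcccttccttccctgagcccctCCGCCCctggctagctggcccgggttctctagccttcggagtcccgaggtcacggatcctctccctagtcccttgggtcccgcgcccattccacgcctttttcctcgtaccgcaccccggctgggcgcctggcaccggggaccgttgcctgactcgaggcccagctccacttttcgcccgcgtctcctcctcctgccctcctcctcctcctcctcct
Hpse: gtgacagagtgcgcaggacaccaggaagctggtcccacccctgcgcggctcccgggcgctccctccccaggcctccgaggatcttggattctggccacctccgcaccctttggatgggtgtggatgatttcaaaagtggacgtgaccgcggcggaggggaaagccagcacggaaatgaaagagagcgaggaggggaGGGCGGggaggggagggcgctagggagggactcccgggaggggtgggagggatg
Cd44: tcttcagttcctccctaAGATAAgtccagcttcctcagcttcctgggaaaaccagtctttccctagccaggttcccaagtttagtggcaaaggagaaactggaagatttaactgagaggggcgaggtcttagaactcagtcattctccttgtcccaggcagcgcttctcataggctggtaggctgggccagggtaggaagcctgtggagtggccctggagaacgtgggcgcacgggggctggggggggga
Sdc1 holds 3 GC boxes at 121, 104 and 49 bases before the start. Gpc4 and Hpse hold 1 each, and Cd44 holds 1 GATA motif at 233 bases before the start and no GC box. Of the 20 promoters of genes called higher on stromal arrays 16 hold a GC box, and 2 of the 7 promoters of genes called lower, against 32.74% of 32851 promoters. The GATA motif, AGATAA or the same with T as its first letter, was in 0 of 20 and 1 of 7 (16.6% of all promoters), CGGAAG, an ETS motif, in 3 of 20 and 1 of 7 (13.59%), and TGTGGT, a RUNX motif, in 1 of 20 and 1 of 7 (14.05%). These are counts of letters in one window per start, several starts of one gene included, and draw nothing about the factors.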

How the data were processed

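RNA of sorted bone marrow cells was measured on 7 Affymetrix mouse expression arrays. The deposited table holds log2 expression values of 45101 probe sets, made with Affymetrix Expression Console 1.1 and RMA, per the submitters' processing notes. Background correction and quantile scaling by RMA came before deposit and bear on every difference, and the number of arrays limits precision.

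Symbols came from the platform annotation: 34945 probe sets had 1 symbol, 932 several, 9160 none and 64 were controls. Each of 18193 genes was represented by its brightest probe set (mean of the 7 arrays). Genes with at least 3 arrays above their own 40th percentile were tested (13995), the other 4198 were not. Stromal minus endothelial differences were fitted with limma 3.58.1 (lmFit, eBayes, no covariates) in R 4.3.3, adjusted by Benjamini-Hochberg over all genes tested, and called where adjusted p was below 0.05 and the difference at least 1 in size. Code was tested on simulated data. The members, lists and alternatives were chosen with earlier results of these data known. All members may be named, and of each pathway list up to 4 called genes per direction with the largest difference. Some uncalled pathway genes are named beside them. Alternatives were other filters, probe set rules, normalizations, limma options and blocks, and leaving out arrays. The alternatives for pathway genes and single probe sets were added after seeing the data.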

Additional observations from a re-analysis of the deposited data

Results flagged for a closer look

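On the 4 stromal arrays 1 value stood apart from the other 3 by Dixon's criterion for 6 of 82 genes checked. Chance gives about 1 in 20. Ndst2 was highest on stromal replicate 1, at 9.21. Hapln3 was lowest there, at 6.02. On stromal replicate 4 Chsy1 was highest at 12.17, Chsy3 at 7.97 and Slc35d1 at 7.35, and Chpf2 was lowest at 8.07. Stromal replicate 4 is also the stromal array with the most platelet transcript, and that was not tested against these values.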

How the results depend on the processing

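Of the 29 called members 18 kept their call under every alternative that gave them a value, and 11 lost it in at least 1, none with a change of sign. Of 21 alternatives run, at most 20 gave a value for a single gene. Vcan, among the 18, had 19, since it was too dim to be tested once averaged. Of the 14 uncalled members 10 were called in some alternative. With adjusted p alone, 12 members, 4412 of all genes, 19 pathway genes and 18 member probe sets were higher on endothelial arrays. With treat, 18 members were called higher and 4 lower. Of all genes 2220 were called higher and 855 lower on stromal arrays, and 2 pathway genes lower. Averaging all probe sets per gene left 5 pathway genes lower. Uncalled members changed sign as follows: Sulf2 to -0.017 (second quantile normalization) and -0.028 (cyclic loess), Gpc3 to 0.12 (cyclic loess) and 0.038 (without endothelial replicate 1), and Ust to 0.079 without stromal replicate 1 or 3, 0.056 without endothelial replicate 1 and 0.011 without endothelial replicate 3. Leaving out 1 array moved Gpc3 between -0.26 and 0.038 and Ust between -0.14 and 0.079, and gave 23 to 24 members higher and 5 to 7 lower, 3980 to 4788 and 1833 to 2297 of all genes, 26 to 31 and 6 to 9 pathway genes, and 36 to 39 and 7 to 11 member probe sets.

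With the replicate block 23 members were called higher and 6 lower. Same-numbered arrays correlated at -0.002, 0.035 and 0.117, so the numbers are not taken as pairs. All-gene medians were -0.12 and -0.02 after the 2 further normalizations, against 0.19, so small differences have no fixed zero. Values near the 40th percentile limit what dim genes can show.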
